A study of Mus musculus with 202 samples.

Results

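Proliferating cells without surface E-cadherin (Ecad-) were compared with proliferating cells that carry it (Ecad+), in a mouse line of pancreatic ductal adenocarcinoma sorted by flow cytometry. A proliferation score was taken for each library as the mean log2 value of 8 genes of late cell cycle (Mki67, Top2a, Cdk1, Ccnb1, Ube2c, Aurkb, Tpx2 and Birc5). Libraries at or above the median score of both fractions together, 4.23, were kept. This kept 31 of 98 Ecad- libraries and 70 of 104 Ecad+ libraries, 101 in all.

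Both fractions came from a male line of the KPC strain, derived from a liver metastasis. The labels record no drug, and the sort on anti-Ecad staining after trypsin is the only difference they record between the fractions. Each library holds the RNA of a single cell, caught in a Fluidigm C1 microfluidic chip and amplified with the SMARTer kit. The labels name no separate culture or animal for any library, so each fraction is 1 sample, and the spread given below is the spread between cells. No test between the fractions was therefore made, and no p-value is given.

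When unfolded protein, amino acid shortage or other stress phosphorylates the initiation factor eIF2, general translation falls while Atf4 messenger RNA is translated more. Atf4 protein then drives genes of amino acid supply and, through Ddit3 (CHOP), of the stress response itself. E-cadherin, encoded by Cdh1, joins epithelial cells, and its loss is known to accompany a shift away from epithelial identity in carcinoma. Cells that stop dividing lose the transcripts of late cell cycle, so a comparison of unequal mixtures of dividing and resting cells carries that difference into many genes.

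Levels are means over cells of TPM, a relative abundance of transcripts corrected for their length. Ratios are log2 of the Ecad- mean plus 1 over the Ecad+ mean plus 1, which understates the change of low genes. With each near-identical pair of libraries averaged, there were 31 Ecad- and 67 Ecad+ cells above the threshold, and 66 Ecad- and 33 Ecad+ cells below it. The libraries fall into 3 sets by a name suffix whose meaning is not stated. Of the kept libraries, 15 Ecad- and 15 Ecad+ were in set 1, 12 and 33 in set 2, and 4 and 22 in set 3. Set 3 holds too few Ecad- cells for a value of its own. A number in the library names is higher in every Ecad- than in every Ecad+ library, so an effect tied to it cannot be told apart from the fraction.

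The kept fractions differed in several measures of the libraries themselves. The median share of mitochondrial transcripts was 19.9% in Ecad- libraries against 30.9% in Ecad+ libraries. The share was under 1% in 10 of 31 Ecad- libraries, including all 4 of set 3. It was under 1% in 0 of 70 Ecad+ libraries, where a count of 0 allows up to 4.29%. The median number of genes above 0 was 9127 in Ecad- and 10490.5 in Ecad+ libraries. The median ratio over the 6980 genes above the floor (a mean of 5 TPM and a value above 0 in 10% of kept cells) was 0.33, and medians of gene lists below are relative to it. Without the Ecad- cells of low mitochondrial share, 21 Ecad- and 67 Ecad+ cells remained and this median was 0.12. The floor is a mean over both fractions together, so a gene can pass it through its level in 1 fraction alone. This holds for list members and for all genes alike. The part of these measures in the results below was not tested, and values without those cells are given beside many of the results. Markers of ductal carcinoma cells summed to a median of 2174 TPM in Ecad- against 4189 TPM in Ecad+ cells, with 8 and 9 of 11 markers at a mean of 5 TPM or more. Hepatocyte markers summed to a median of 19.4 TPM in Ecad- against 26.2 TPM in Ecad+ cells, with 2 of 9 at a mean of 5 TPM or more in each. Fibroblast markers summed to at most 5.00 TPM in Ecad- against 5.03 TPM in Ecad+ cells, and 0 of 12 had a mean of 5 TPM in either fraction. Endothelial markers summed to at most 40.4 and 11.3 TPM, and acinar and endocrine markers to at most 26.9 and 24.2 TPM, with 0 at that mean. Immune markers summed to a median of 2.27 and at most 173 TPM in Ecad- cells, and to a median of 0.958 and at most 107 TPM in Ecad+ cells, with 3 and 0 of 20 markers at a mean of 5 TPM or more. The part of these other cell types in the results was not tested.

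The share of libraries kept was 31.6% in Ecad- (exact Clopper-Pearson 95% interval 22.6% to 41.8%) and 67.3% in Ecad+ (57.4% to 76.2%). The intervals treat libraries as independent and cover counting error only, and both libraries of each near-identical pair were counted. The threshold was the median of these same scores, so a low share in 1 fraction goes with a high share in the other. The shares and their intervals therefore describe the rule and are no test between the fractions. By set, 45.5% of Ecad- and 53.6% of Ecad+ libraries were kept in set 1, 37.5% and 84.6% in set 2, and 12.1% and 59.5% in set 3. Just inside the threshold stood Ecad- libraries at 4.34 and 4.35 and Ecad+ libraries at 4.29 and 4.38. Just outside it stood an Ecad- library at 3.76 and Ecad+ libraries at 3.67, 4.17 and 4.18.

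The threshold did not equalise the score. Kept Ecad- libraries ran from 4.34 through a median of 5.80 to 7.98, and kept Ecad+ libraries from 4.29 through 7.28 to 8.36. In 3 bands of score, the lowest (4.29 to 6.24) held 21 Ecad- and 12 Ecad+ cells. The middle band (6.25 to 7.32) held 8 and 24, and the highest (7.33 to 8.36) held 2 and 31. Values within the lowest band are given beside a part of the results.

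**Figure D1:**
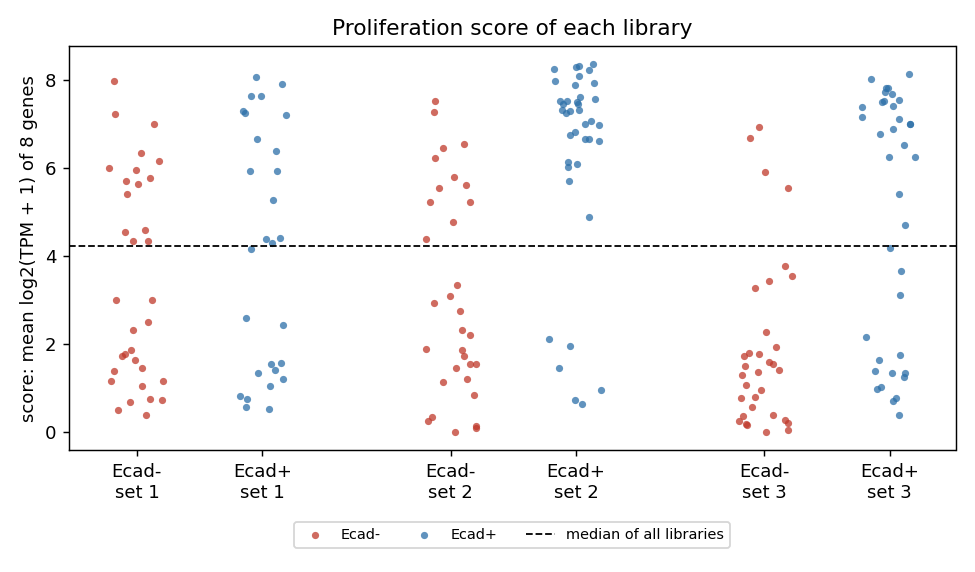
Proliferation score (mean log2 value of 8 genes) of every library, Ecad- on the left and Ecad+ on the right, with the threshold of 4.23 drawn as a line. Of the libraries, 31 Ecad- and 70 Ecad+ lie at or above the line.

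The score genes chose the cells, so their levels are description only. Ube2c, which loads ubiquitin for the anaphase-promoting complex, averaged 256 TPM in Ecad- against 824 TPM in Ecad+ cells, a ratio of -1.68. Cdk1, the mitotic kinase, averaged 404 TPM in Ecad- against 811 TPM in Ecad+ cells. Tpx2, a spindle assembly factor, averaged 102 TPM in Ecad- against 108 TPM in Ecad+ cells. All 8 ratios were below 0 over the kept cells, and the other 5 ran from -0.78 for Aurkb to -0.25 for Birc5. In the lowest score band 5 of the 8 were above 0, with 0.59 for Top2a, 0.50 for Aurkb, 0.46 for Cdk1, 0.16 for Birc5 and 0.14 for Ccnb1.

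Many late cell cycle genes are known to carry the element TTTGAA, the cell cycle genes homology region through which they are repressed in resting cells. It is shown for 3 score genes because it is the feature of these promoters that ties them to the cell cycle. The 80 bases before the RefSeq start (GRCm38.p6) follow on the strand of the gene, with TTTGAA or its reverse complement TTCAAA in capitals, at chr10:69352913-69352992 on the minus strand for Cdk1, chr11:99024190-99024269 on the minus strand for Top2a and chr2:164769849-164769928 on the plus strand for Ube2c.
Cdk1: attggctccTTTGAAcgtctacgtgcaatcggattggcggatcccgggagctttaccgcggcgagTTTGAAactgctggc
Top2a: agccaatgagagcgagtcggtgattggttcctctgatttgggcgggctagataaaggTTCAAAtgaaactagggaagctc
Ube2c: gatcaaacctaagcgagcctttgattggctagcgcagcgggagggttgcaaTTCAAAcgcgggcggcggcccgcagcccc
In windows of 300 bases searched on both strands, the letters stood in 4 of the 6 score genes with a promoter in the table (66.7%) and in 20.2% of 27025 genes. A match is a description of the letters and not of binding.

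Mitotic genes outside the score sat below all genes over the kept cells, but not in set 1 or with the score bands weighted equally. Replication genes sat near the level of all genes. The 46 G2/M genes outside the score had a median of -0.50 relative to all genes over the kept cells. It was -0.59 without cells of low mitochondrial share, -0.16 in the lowest score band and 0.18 with the 3 bands weighted equally. That last value gives the highest band, with only 2 Ecad- cells, the same weight as each other band. Past 2-fold, 0 were higher, against 17.4% of all 6980 genes, and 2 were lower, against 3.25%. Without cells of low mitochondrial share 0 were higher and 6 lower, beside 5.64% and 3.38% of all genes. The 2 lower over all kept cells were H2afx, the histone variant that marks DNA breaks, and Cdc25b, the phosphatase that activates Cdk1. H2afx had a median of 8.46 TPM in Ecad- against 23.0 TPM in Ecad+ cells, a ratio of -1.91. That ratio was -0.47 in set 1, -2.20 in set 2 and -0.93 in the lowest score band. Cdc25b had medians of 3.15 and 19.0 TPM and a ratio of -1.04, which was 0.94 in the lowest score band. Pttg1 (securin), the inhibitor of separase, went the other way, at 87.8 TPM in Ecad- against 44.3 TPM in Ecad+ cells. The list stood at 0.02 in set 1 and -1.18 in set 2, so its position was not shared between the sets.

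The 44 G1/S and replication genes above the floor had a relative median of -0.02, with -0.05 in set 1 and 0.05 in set 2. Among cells below the threshold it was -0.61, and over all cells -0.68. The difference between kept and other cells was not tested. Past 2-fold among kept cells, 4 were higher and 1 was lower, below the 17.4% and 3.25% of all genes in each direction. Rfc4, a subunit of the clamp loader, averaged 337 TPM in Ecad- against 141 TPM in Ecad+ cells, with medians of 154 and 117 TPM. Rad51ap1, a recombination factor, had a ratio of 1.87 on means but medians of 20.6 TPM in Ecad- against 21.2 TPM in Ecad+ cells. Without cells of low mitochondrial share, Rad51ap1 had a ratio of 0.21, Rfc4 -0.04, Chaf1b (chromatin assembly) -0.00 and Cdt1 (origin licensing) -0.63, and the list median was -0.41. Tk1, the thymidine kinase of S phase, averaged 59.6 TPM in Ecad- against 122 TPM in Ecad+ cells. Its ratio was -1.02, with -0.71 without cells of low mitochondrial share and -0.06 in the lowest score band. It was chosen after its values were seen.

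**Figure D2:**
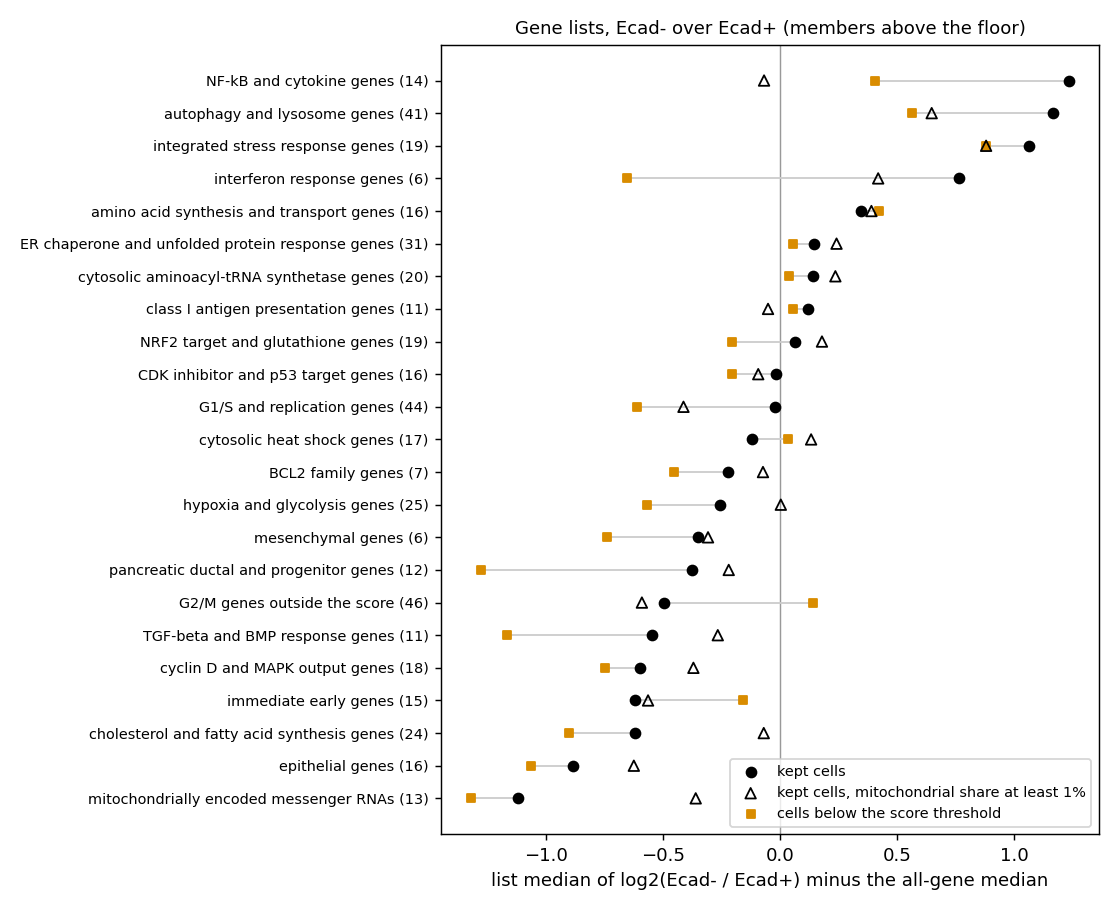
Median log2 ratio of Ecad- over Ecad+ for each gene list except the score genes and the NK receptor and checkpoint ligands. Medians are relative to the median of all genes, among the kept cells and in the alternatives shown. The integrated stress response and autophagy lists lie at 1.06 and 1.17 among kept cells, and the epithelial list at -0.88.

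Genes of the integrated stress response were higher in proliferating Ecad- cells. Of 31 list genes, 19 passed the floor, with a relative median of 1.06 (1.46 in set 1 and 1.19 in set 2). Past 2-fold, 13 were higher and 0 were lower, beside 17.4% and 3.25% of all genes. Members such as Trib3 and Klhl24, at 0.979 and 0.737 TPM in Ecad+ cells, passed the floor through Ecad- cells. Such members could not count as lower. Without cells of low mitochondrial share, 10 were higher and 1 was lower, beside 5.64% and 3.38% of all genes, and the median was 0.88. In both set 1 and set 2, 16 of the 19 had ratios above 0 and 0 below, beside 49.9% and 17.1% of all genes. In the lowest score band the median was 1.02, and among cells below the threshold it was 0.88.

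Ddit3, the transcription factor CHOP, ran from 0 through a median of 119 to 2174 TPM in 31 Ecad- cells, and from 0 through 4.57 to 507 TPM in 67 Ecad+ cells. The ranges overlapped, but 26 Ecad- cells lay above the Ecad+ median and 8 above the highest Ecad+ cell. Its means were 350 and 15.4 TPM, a ratio of 4.42, with 5.33 in set 1, 5.14 in set 2 and 3.07 without cells of low mitochondrial share. Across the 31 kept Ecad- cells, log2 Ddit3 correlated with the score at 0.18, with genes above 0 at 0.30 and with mitochondrial share at -0.61. These are descriptions over cells of 1 sample. Below the threshold the Ddit3 ratio was 3.37.

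Atf4, the factor upstream of these genes, had a median of 133 TPM in Ecad- against 64.2 TPM in Ecad+ cells. Its mean ratio of 2.51 rested on a few cells, since the highest Ecad- cell had 7500 TPM, and it was 0.84 without cells of low mitochondrial share. Ppp1r15a (GADD34), which brings the phosphatase to eIF2, had medians of 58.2 TPM in Ecad- against 24.2 TPM in Ecad+ cells and a ratio of 3.05, or 1.05 without those cells. Trib3, a pseudokinase induced by CHOP, was above 0 in 15 of 31 Ecad- and 17 of 67 Ecad+ cells. It averaged 15.2 TPM in Ecad- against 0.979 TPM in Ecad+ cells, and its ratio of 3.04 was 3.06 without those cells.

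Atf4 and CHOP are known to bind the composite element TGATGNAA, so it was searched on both strands of the promoters, which run from 250 bases before to 50 after each RefSeq start (GRCm38.p6). It stood in 8 of 22 genes of the stress response list that have a promoter in the table (36.4%) and in 4.51% of 27025 genes. List genes were searched whether or not they passed the floor. The list was made of genes of this response, so its share describes the list and is no result about these cells. The element, here read as TTGCATCA, is in capitals in 60 bases on the strand of the gene at chr2:119351023-119351082 (plus) for Chac1, chr8:94386291-94386350 (plus) for Herpud1, chr7:126625547-126625606 (minus) for Nupr1 and chr1:191183410-191183469 (minus) for Atf3. These 4 are shown because they carry the same 8 letters but differ in ratio.
Chac1: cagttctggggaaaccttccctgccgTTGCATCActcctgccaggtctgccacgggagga
Herpud1: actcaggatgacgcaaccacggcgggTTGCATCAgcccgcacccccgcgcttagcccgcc
Nupr1: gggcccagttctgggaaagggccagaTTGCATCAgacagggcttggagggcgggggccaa
Atf3: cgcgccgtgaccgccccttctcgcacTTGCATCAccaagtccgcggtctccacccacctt
Nupr1, a stress-induced chromatin protein, averaged 396 TPM in Ecad- against 93.2 TPM in Ecad+ cells, a ratio of 2.08. Chac1, which degrades glutathione, averaged 11.5 and 2.45 TPM (ratio 1.86), and Herpud1, a factor of ER-associated degradation, 71.2 and 30.0 TPM (ratio 1.22). Atf3, a repressor downstream of Atf4, averaged 27.6 TPM in Ecad- against 33.8 TPM in Ecad+ cells, a ratio of -0.29. These 4 genes were chosen after their values were seen. The promoters of Ddit3, Atf4 and Ppp1r15a in the table held no match, which says only that the letters are not in those windows.

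Of 16 amino acid synthesis and transport genes above the floor, 5 were higher past 2-fold and 0 lower, beside 17.4% and 3.25% of all genes. The relative median was 0.35. Without cells of low mitochondrial share 5 were higher past 2-fold, beside 5.64% of all genes. Asns, asparagine synthetase, had a median of 257 TPM in Ecad- against 61.8 TPM in Ecad+ cells, and 26 of 31 Ecad- cells lay above the Ecad+ median. Its ratio was 1.89, and 1.71 without cells of low mitochondrial share. Psph, the last enzyme of serine synthesis, had medians of 68.3 and 20.6 TPM and a ratio of 1.76, which was 1.87 without those cells. Slc3a2, the heavy chain of amino acid exchangers, had medians of 130 TPM in Ecad- against 45.8 TPM in Ecad+ cells. Of the 20 cytosolic aminoacyl-tRNA synthetases, 4 were higher past 2-fold and 0 lower, near the 17.4% of all genes, with a relative median of 0.14. Sars, the enzyme for serine, averaged 181 TPM in Ecad- against 78.7 TPM in Ecad+ cells.

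The chaperone arm of the unfolded protein response stood closer to all genes, with a relative median of 0.15 over 31 genes. Of these, 6 were higher past 2-fold and 0 lower, near the 17.4% of all genes that were higher. Hspa5 (BiP), the main chaperone of the endoplasmic reticulum, had a median of 303 TPM in Ecad- against 149 TPM in Ecad+ cells, and a ratio of 0.76. Xbp1, the factor spliced by the sensor Ire1, had a ratio of 0.40 that was -0.28 in set 1 and 1.26 in set 2. Dnajb9, a cochaperone of BiP, averaged 85.5 TPM in Ecad- against 14.8 TPM in Ecad+ cells, a ratio of 2.45 and 1.44 without cells of low mitochondrial share. Crebrf, a negative regulator of this response, had a ratio of 4.31 that was 1.43 without those cells.

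**Figure D3:**
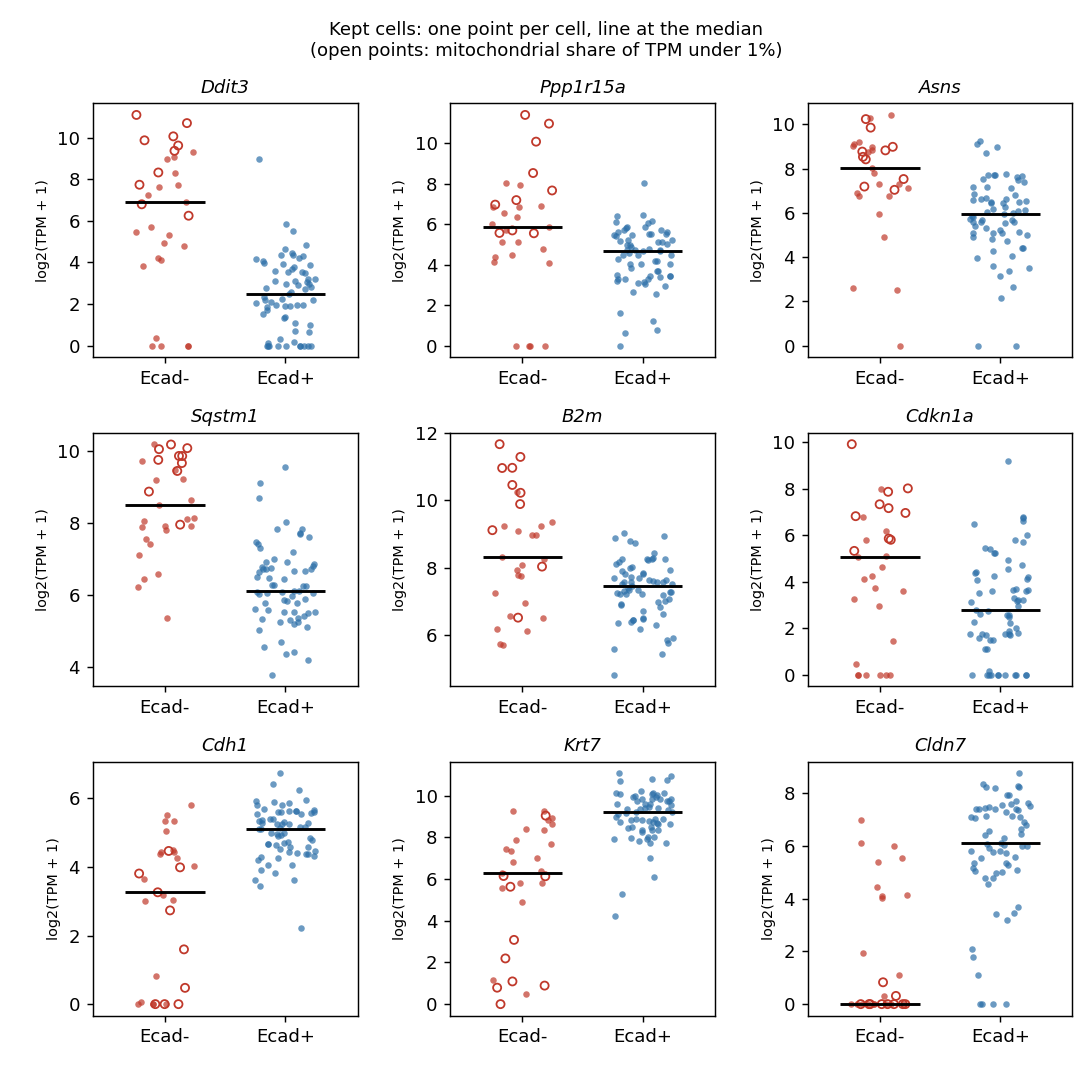
TPM of selected genes in every kept cell, Ecad- on the left and Ecad+ on the right, on a log scale. Sqstm1 lies above the Ecad+ median in 30 of 31 Ecad- cells, and Krt7 below it in 29 of 31.

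Autophagy and lysosome genes were higher in proliferating Ecad- cells, with 33 of 41 higher past 2-fold and 0 lower, beside 17.4% and 3.25% of all genes. Members such as Hexa, Fnip1 and Atg14, at 2.92, 3.01 and 0.800 TPM in Ecad+ cells, passed the floor through Ecad- cells. Such members could not count as lower. The relative median was 1.17, with 1.32 in set 1 and 0.99 in set 2. Without cells of low mitochondrial share the count was 13, beside 5.64% of all genes, and the median was 0.65. In the lowest score band the median was 0.72. Among cells below the threshold the median was 0.57, or 0.06 without such cells there.

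Sqstm1 (p62), the receptor that carries ubiquitinated cargo to autophagosomes, had a median of 358 TPM in Ecad- against 67.6 TPM in Ecad+ cells. It lay above the Ecad+ median in 30 of 31 Ecad- cells, with a ratio of 2.20, which was 1.67 without cells of low mitochondrial share and 1.04 in the lowest score band. Hexa, a lysosomal hexosaminidase subunit, had the highest ratio of the list, 5.43, but medians of only 4.08 TPM in Ecad- against 0.0861 TPM in Ecad+ cells. It was above 0 in 18 of 31 Ecad- and 34 of 67 Ecad+ cells, and the upper quartile of Ecad- cells began at 87.0 TPM, so part of the cells carried the mean. Its ratio was 3.30 without cells of low mitochondrial share. Fnip1, a partner of folliculin in nutrient sensing, had medians of 11.4 and 2.74 TPM, and 16 Ecad- cells exceeded every Ecad+ cell. Atp6v0d1, a subunit of the proton pump of the lysosome, had medians of 24.6 TPM in Ecad- against 10.6 TPM in Ecad+ cells, and its ratio of 3.65 was 1.19 without cells of low mitochondrial share.

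**Figure D4:**
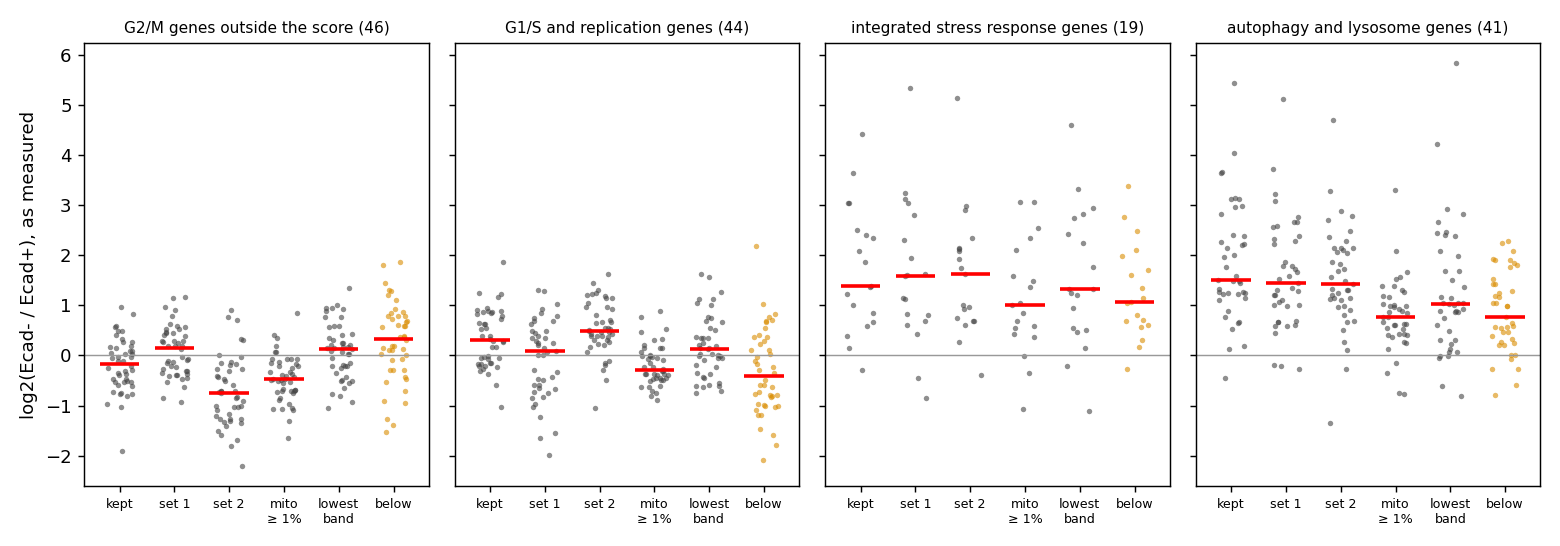
Log2 ratio of Ecad- over Ecad+ for single members of selected lists among kept cells and in the alternatives shown. Ddit3 lies at 4.42 among all kept cells and at 3.07 without cells of low mitochondrial share.

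Class I antigen presentation genes sat near all genes as a list, while B2m and H2-D1 stood higher. The 11 genes above the floor had a relative median of 0.12, with 3 higher past 2-fold and 0 lower, beside 17.4% and 3.25% of all genes. B2m, the light chain of class I molecules, had a median of 320 TPM in Ecad- against 174 TPM in Ecad+ cells. Its ratio was 1.82, and 0.77 without cells of low mitochondrial share. The heavy chain H2-D1 had a ratio of 1.58, which was 0.48 without those cells and 0.25 in the lowest score band. H2-K1 had 0.45, with -0.36 without those cells and -0.34 in the lowest band. The heavy chains are near-identical paralogs, so reads may be split between them. Of 5 ligands of NK receptors and checkpoints, 1 was higher past 2-fold and 0 lower, near the 17.4% of all genes that were higher. It was Pvr, which binds DNAM-1 and TIGIT, at 14.3 TPM in Ecad- against 3.78 TPM in Ecad+ cells. Its ratio was 1.67, and 1.76 without cells of low mitochondrial share. H2-T24 had a ratio of 0.99, while Lgals9 and Cd47 went the other way, at -0.62 and -0.35.

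Epithelial genes were lower in proliferating Ecad- cells, which were sorted on the protein of 1 of them. Of 34 list genes, 16 passed the floor, with a relative median of -0.88 (-0.77 in set 1 and -1.04 in set 2). Past 2-fold, 0 were higher and 7 lower, beside 17.4% and 3.25% of all genes. The count was 5 without cells of low mitochondrial share, beside 3.38%. Among cells below the threshold the relative median was -1.06, with 0 higher and 7 lower past 2-fold, beside 11.8% and 6.81% of all genes. Cdh1 had a median of 8.59 TPM in Ecad- against 33.3 TPM in Ecad+ cells. It was above 0 in 24 of 31 Ecad- cells and 67 of 67 Ecad+ cells, and 27 Ecad- cells lay below the Ecad+ median. Its ratio was -1.30, and -1.29 below the threshold.

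Krt7, a ductal keratin, had a median of 78.2 TPM in Ecad- against 595 TPM in Ecad+ cells, a ratio of -1.98. Cldn7, a tight junction protein, was above 0 in 14 of 31 Ecad- and 63 of 67 Ecad+ cells and had a ratio of -2.90. Epcam, an adhesion molecule, was above 0 in 6 of 31 Ecad- and 36 of 67 Ecad+ cells. Its ratio was -3.31 among kept cells and 0.37 below the threshold, a difference that was not tested. Krt7 and Cldn7 were lower below the threshold too, with ratios of -1.90 and -2.17 there. Mesenchymal genes were not raised as a list: 6 of 34 passed the floor, with a relative median of -0.35. Vim, the mesenchymal filament, had a median of 278 TPM in Ecad- against 395 TPM in Ecad+ cells. Snai2, a repressor of Cdh1, averaged 9.80 TPM in Ecad- against 3.00 TPM in Ecad+ cells, but its medians were only 0.298 and 0.161 TPM. It was above 0 in 18 of 31 Ecad- and 37 of 67 Ecad+ cells, and the highest Ecad- cell had 90.8 TPM.

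Brakes on the cell cycle were mixed in cells chosen for their proliferation score. Of 16 CDK inhibitor and p53 target genes, 5 were higher past 2-fold and 0 lower, beside 17.4% and 3.25% of all genes, with a relative median of -0.02. Of these genes, 2 were higher without cells of low mitochondrial share, beside 5.64%. Cdkn1a (p21), the inhibitor of cyclin-dependent kinases, had a median of 32.0 TPM in Ecad- against 5.81 TPM in Ecad+ cells, and 23 of 31 Ecad- cells lay above the Ecad+ median. Its ratio was 1.80, and 0.30 without cells of low mitochondrial share. Within the 31 Ecad- cells, log2 Cdkn1a correlated with the score at 0.39, with genes above 0 at 0.37 and with mitochondrial share at -0.67, a description over cells of 1 sample. Gadd45a, a stress sensor of the growth arrest family, had a ratio of 1.99 that was 2.09 without those cells. Ccnd1, the cyclin of early G1, had a median of 62.6 TPM in Ecad- against 167 TPM in Ecad+ cells and a ratio of -0.78. Its list of 18 cyclin D and MAPK output genes had a relative median of -0.60, with 0 higher and 2 lower past 2-fold, beside 17.4% and 3.25% of all genes. It was -0.37 without cells of low mitochondrial share, with 0 past 2-fold.

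Among the remaining lists, the 13 mitochondrially encoded messenger RNAs had a relative median of -1.12, which was -0.36 without cells of low mitochondrial share, a group defined on these transcripts. Of 14 NF-kB and cytokine genes, 12 were higher past 2-fold and 1 lower, beside 17.4% and 3.25% of all genes, with a relative median of 1.23. The median was 1.63 in set 1, 0.26 in set 2, 0.10 in the lowest score band and 0.18 with means of log2 values. Without those cells 2 were higher, beside 5.64% of all genes, and the median was -0.07. Ccl20, Icam1 and Relb, at 1.00, 3.54 and 3.78 TPM in Ecad+ cells, passed the floor through Ecad- cells and could not count as lower. Iron storage genes of the NRF2 list were higher: Ftl1 had a median of 8746 TPM in Ecad- against 3226 TPM in Ecad+ cells, and Fth1 3061 and 1508 TPM, each with 28 of 31 Ecad- cells above the Ecad+ median. Of the TGF-beta and BMP list, Id1, an inhibitor of differentiation factors induced by BMP, had a median of 11.4 TPM in Ecad- against 138 TPM in Ecad+ cells. Id3 had medians of 13.0 and 65.1 TPM. That list had a relative median of -0.55, with 1 gene higher and 2 lower past 2-fold, beside 17.4% and 3.25% of all genes.

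For the other lists, relative medians were -0.62 for 24 cholesterol and fatty acid synthesis genes (-0.07 without cells of low mitochondrial share) and -0.62 for 15 immediate early genes (-0.62 in set 1, -0.54 in set 2 and -0.56 without those cells). They were -0.38 for 12 ductal and progenitor genes, -0.26 for the 5 NK receptor and checkpoint ligands, -0.25 for 25 hypoxia and glycolysis genes and -0.22 for 7 BCL2 family genes. They were -0.12 for 17 heat shock genes, 0.06 for 19 NRF2 target genes and 0.14 for the 20 tRNA synthetases. The 6 interferon response genes above the floor had 0.76, but -0.55 in the lowest score band. Fos, an immediate early factor of AP-1, had a median of 10.6 TPM in Ecad- cells and 83.8 TPM in Ecad+ cells, with 26 of 31 Ecad- cells below the Ecad+ median.

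Over all genes, 1213 were higher and 227 lower past 2-fold in proliferating Ecad- cells, of which 1150 (16.5%) and 209 (2.99%) had that sign in both set 1 and set 2. Below the threshold the counts past 2-fold were 826 (11.8%) and 475 (6.81%), and over all cells they were 920 (13.2%) and 312 (4.47%). The balance between directions depended on the scale, with 310 higher and 970 lower among kept cells with means of log2 values, and 682 and 469 when centred on the all-gene median. The counts were 394 and 236 without cells of low mitochondrial share. Among the genes highest in both sets, Mospd1 had a median of 126 TPM in Ecad- against 31.9 TPM in Ecad+ cells, with 29 of 31 Ecad- cells above the Ecad+ median. Dpp7, a lysosomal peptidase, had medians of 53.1 and 15.8 TPM and a ratio of 4.27, or 3.01 without those cells. Among the lowest, Clu (clusterin), a secreted chaperone, had a median of 789 TPM in Ecad- against 2899 TPM in Ecad+ cells. Paqr5, a progestin receptor of the membrane, had medians of 0.0664 and 41.2 TPM, and Itga3, an integrin for laminin, 10.8 and 34.7 TPM. Of 31 Ecad- cells, 30 lay below the Ecad+ median for Clu, 30 for Paqr5 and 29 for Itga3.

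Ratios were also set side by side between kept cells and those below the threshold. Csn3, a casein, had a ratio of 3.70 among kept cells and 0.55 below the threshold, and Sord, sorbitol dehydrogenase, 2.30 and -0.80. The ratio of Sord among kept cells was 0.93 without cells of low mitochondrial share, and that of Csn3 was 2.90. Ccnb2, a mitotic cyclin, had -0.47 among kept cells and 1.86 below the threshold, and Cdkn3, a phosphatase of Cdk1, -0.12 and 2.49. Prl2c3 and Prl2c2, paralogs of the prolactin family between which reads may be split, had -4.79 and -3.87 among kept cells, though both had medians of 0 TPM in Ecad- and in Ecad+ cells. These genes were picked for the difference, so it is a description.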

How the data were processed

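The values analysed are the log2 values that the authors deposited, in a table with 28987 genes and a column for each of 98 Ecad- and 104 Ecad+ libraries. Per the submitters' processing notes, reads were handled with FastQC 0.11.5 and kallisto (no version) on build mm10. Taken as log2(TPM + 1), a reading made from the values, they back-transform to column totals of 933711 to 987134. TPM keeps no read depth, and a gene at 0 is listed at 0, which need not mean absence. The amplification chemistry does not mark strand, so overlapping genes cannot be told apart. Columns of the authors' own comparison were not used here.

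Groups came from the sample labels. Libraries correlating over 0.97 across all genes (5 pairs) were averaged and counted as 1 cell. Levels, ratios and the floor are as given above, computed with Python and pandas, and the ratio script was tested on simulated data. Gene coordinates come from GENCODE M21 and promoters from RefSeq. A gene was counted as higher or lower at a log2 ratio of at least 1 or at most -1. The 136 genes that could be named were 26 fixed genes, the 4 members of a list farthest from a ratio of 0, the 10 most different each way in sets 1 and 2, and 6 each way that differed most between kept cells and those below the threshold. Nupr1, Chac1, Herpud1, Atf3 and Tk1, chosen after their values were seen, were named besides these. The members, lists and tests were chosen with earlier results of these data known. Alternatives changed the threshold, score genes, group level, pseudocount, floor, scaling, library sets and cells.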

Additional observations from a re-analysis of the deposited data

How the results depend on the processing

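With the threshold at the upper tertile of scores 11 Ecad- libraries were kept, and at the upper quartile 6 Ecad- and 45 Ecad+. Those 6 Ecad- libraries had mitochondrial shares of 0.184%, 47.0%, 0.0882%, 0.126%, 23.4% and 0.317%. The part of these shares in the values at the stricter thresholds was not tested. The 1213 genes higher past 2-fold became 310 with means of log2 values, 664 rescaled without mitochondrial and ribosomal protein genes, 586 at a pseudocount of 10 TPM, 394 without cells of low mitochondrial share, 2082 with no floor, 290 at a floor of 50 TPM and 682 centred on the all-gene median. The 227 lower became 378 at the upper tertile, 454 at the upper quartile, 970 with means of log2 values, 384 rescaled, 75 at a pseudocount of 10 TPM, 344 without set 1, 417 without set 2, 371 with no floor, 58 at a floor of 50 TPM and 469 centred. The G2/M median of -0.50 was 0.18 with score bands weighted equally. Equal weighting gives the highest band, with only 2 Ecad- cells, the same weight as each other band. The G1/S median was 0.28 and 0.33 at the upper tertile and quartile, -0.41 without cells of low mitochondrial share and 0.26 with no floor. The stress response median was 1.31 and 1.61 at the upper tertile and quartile, 0.79 at a pseudocount of 10 TPM, 1.51 with bands weighted equally and 2.20 at a floor of 50 TPM. The autophagy median was 1.75 and 2.07 at the upper tertile and quartile, 0.65 without cells of low mitochondrial share, 1.91 with bands weighted equally and 0.72 in the lowest band. The epithelial median was -1.35 with means of log2 values and -0.21 with no floor.

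Of 454 list medians under alternatives, 44 in 12 lists had the other sign from the reported median. Of these, 3 were in lists whose median before rounding was at least 0.5 from 0: interferon, at -0.55 in the lowest band and -0.016 with no floor, and NF-kB, at -0.068 without cells of low mitochondrial share. The G2/M list, at -0.497 before rounding, fell just short of that limit and also changed sign, to 0.18 with bands weighted equally. Of 96 named genes past 2-fold, 11 reversed in 17 of 1725 values. In the lowest score band, an alternative added after seeing the data, these were Cdk1 0.46, Cdc25b 0.94, Cdt1 -0.23, Sprr1a -1.58 and Hist1h4d 0.036. Without cells of low mitochondrial share they were Rfc4 -0.039, Chaf1b -0.00091, Cdt1 -0.63, Icam1 -0.29 and Relb -0.38. With means of log2 values they were Cdt1 -0.11, Stard4 -0.19, Oasl1 -0.037, Icam1 -0.21 and Sprr1a -2.08. Sprr1a was also -0.90 with a trimmed mean and -3.10 without set 1. The cause of these changes was not tested. No paired analysis was possible because no test was made and the title numbers only name cells. Depth is unknown, so a difference in low genes may lie within counting error.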
